A study of Mus musculus with 16 samples.

Results

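Translational efficiency, the polyribosomal level of an mRNA relative to its level in total RNA of the same culture, was compared between control and Tsc2 mutant neural stem cells (NSCs). The cells came from the V-SVZ (ventricular-subventricular zone), a niche beside the lateral ventricles of the mouse brain in which NSCs persist after birth. There were 4 control cultures with the genotype Tsc2 wild type/wild type and 4 mutant cultures with the genotype Tsc2 mutant/mutant, and 1 library of total RNA and 1 of polyribosomal RNA were made from every culture, 16 in all. By the study's methods, the mutant pups carried floxed Tsc2, a red fluorescent reporter and Nestin-CreERT2, a Cre that tamoxifen switches on in Nestin-expressing cells. Pups were given 4-hydroxytamoxifen after birth, and the cells were expanded with EGF and FGF2 and passaged once. Whether the control pups carried Cre was not clear from the sources used here, and the labels give neither the sex nor the animal or litter of a culture. Each culture was treated with cycloheximide, which holds ribosomes on mRNA, and polyribosomal RNA was the RNA of the densest sucrose fractions, which hold mRNAs loaded with many ribosomes. Total RNA came from the whole lysate. Genes with a mean normalised value of at least 10 in both tables were analysed, 14333 of the 24946 kept. All 16 libraries of the series were used.

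Tsc2 encodes tuberin, which together with hamartin holds back mTORC1, the kinase complex that couples amino acid and growth factor supply to protein synthesis. Active mTORC1 phosphorylates the 4E-BP proteins, which then release the cap-binding factor eIF4E. It also acts on mRNAs that begin with a terminal oligopyrimidine (TOP) tract, a cap-proximal C followed by a run of pyrimidines that is found in mRNAs of ribosomal proteins and elongation factors. A change in efficiency is here the difference in log2(polyribosomal value + 1) minus log2(total value + 1) between mutant and control cultures, so a change of 1 is a doubling. The 2 tables were normalised separately, so the zero of the log2 efficiency is arbitrary and only differences between genotypes were tested.

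The cultures held the markers of their label. All 10 NSC markers were detected, and their summed total RNA value was between 743643 and 882116 in control and between 762816 and 850643 in mutant cultures. Markers of other cells differed between cultures. Of microglial and macrophage markers 19 of 19 were in the tables, and they summed to between 5820 and 8840 in control total RNA but to 9929, 36167, 8117 and 20541 in mutant cultures 1 to 4. Choroid plexus and ependymal markers summed to between 205153 and 266868 in control and between 303829 and 435196 in mutant cultures. In total RNA 4 Y-linked genes summed to 4203, 4967, 5802 and 258 in control cultures 1 to 4 and 4775, 48.6, 16.4 and 6.57 in mutant cultures 1 to 4, so that genotype and Y-linked level were partly confounded. Depth, estimated from the spacing of the lowest values, was between 24.7 M and 139 M reads per total RNA library and between 51.8 M and 268 M per polyribosomal library.

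Tsc2 transcripts were recovered from every library. The total RNA values were 7836, 6817, 6232 and 6701 in control cultures 1 to 4 and 7076, 6811, 6190.4 and 5592 in mutant cultures 1 to 4, and the 2 genotypes overlapped. In the polyribosomal libraries they were 13164, 10615, 11506 and 10505 in control and 9339, 8829.8, 8899 and 5956 in mutant cultures, all mutant values lying below all control values. The log2 efficiency was 0.75, 0.64, 0.88 and 0.65 in control cultures 1 to 4 and 0.40, 0.37, 0.52 and 0.091 in mutant cultures 1 to 4, a change of -0.38 ± 0.12 (SE) with an adjusted p of 0.0499 in limma. This was at the edge of the threshold of 0.05, and adjusted p rose to between 0.0741 and 0.166 when any culture other than control culture 1 or mutant culture 3 was left out. The tables hold 1 value per gene, so reads from the deleted part could not be examined separately and the value is not a check of the deletion.

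Of 14333 genes, 727 (5.07%) had higher and 1131 (7.89%) had lower efficiency in mutant than in control cultures at an adjusted p below 0.05, together 13% of the genes. The quartiles of all changes were -0.23 and 0.23, with a median SE of 0.15. The change was at least 2-fold in 32 of the called genes that rose and in 112 of those that fell. Among the called genes 1601 of 1858 had no overlap between the 4 control and the 4 mutant cultures, as against 19% of all tested genes (8.16% higher and 10.8% lower). Genes called with higher efficiency had a median change of -0.30 in total RNA and of 0.33 in polyribosomal RNA, and those with lower efficiency of 0.30 and -0.33. Of the 727 higher genes 338 also passed the test for lower total RNA and 210 for higher polyribosomal RNA, and of the 1131 lower genes 458 passed for higher total RNA and 331 for lower polyribosomal RNA. In the plot of one fraction against the other the called genes lie on either side of the line of equal change.

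**Figure D1:**
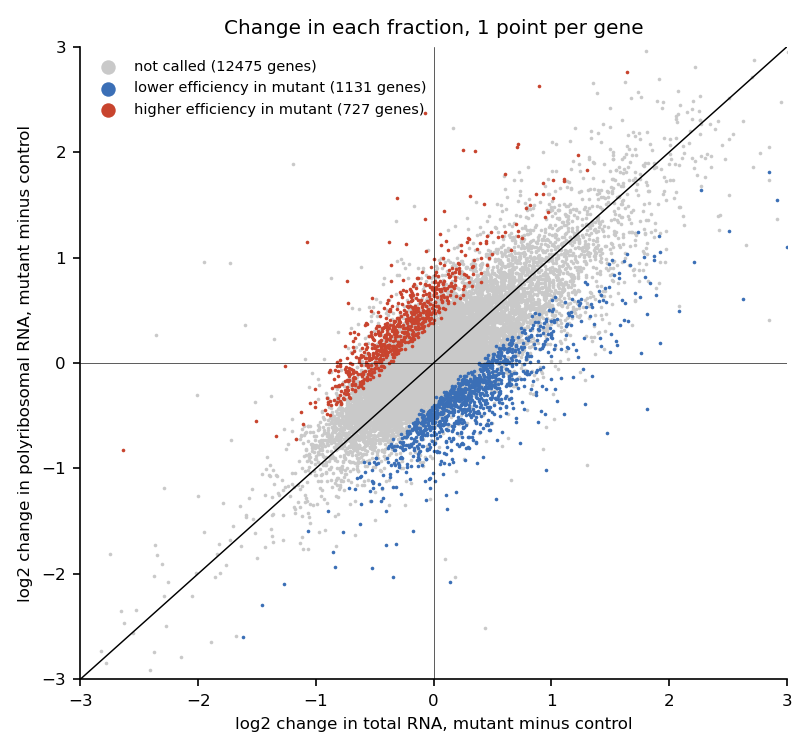
Log2 change of each tested gene in total RNA (x axis) against its log2 change in polyribosomal RNA (y axis), mutant minus control over 4 cultures each. The 727 genes with higher efficiency lie above the line of equal change and the 1131 with lower efficiency below it, and 43 genes lie outside the axes.

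These counts rest on the culture as a block, on the moderation of variances and on single cultures. No gene passed without the replicate block, without robust moderation and variance trend, or with the mean Y-linked level in the model, where 2221, 3980 and 2214 genes had an unadjusted p below 0.05, against 4246 in limma with the block. Leaving out control culture 1 raised the counts to 1496 higher and 1786 lower. They fell to 329 and 514 without control culture 2, to 326 and 439 without control culture 3 and to 189 and 460 without mutant culture 1. Without mutant culture 3 there were 371 higher and 860 lower genes, and without mutant culture 4 there were 713 and 705. Higher genes were 39.1% of the calls as deposited, 49.3% (920 higher, 946 lower) when libraries were scaled to equal totals and 56.9% (997 higher, 755 lower) without mutant cultures 2 and 4. Only 1 culture with a high Y-linked level was mutant, so the comparison could not be made within cultures of high Y-linked level. With that level in the model the median SE was 0.21 in place of 0.15.

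The changes followed the length of the mRNA. Called genes with higher efficiency had a median annotated mRNA length of 982 nucleotides (nt) and those with lower efficiency of 4572 nt, beside 2758 nt over the 13593 tested genes with an annotated length. Of genes with mRNAs of at most 1000 nt, 346 were higher and 5 lower, and of genes over 5000 nt 23 were higher and 454 lower. To place the comparison on cultures rather than genes, a Spearman coefficient of log2 efficiency with mRNA length was computed in each culture. It was -0.163, -0.207, -0.18 and -0.275 in control cultures 1 to 4 and -0.42, -0.312, -0.363 and -0.427 in mutant cultures 1 to 4. Longer mRNAs thus had lower efficiency in all 8 cultures, and the coefficient was more negative in all 4 mutant cultures than in any control culture. The slope of log2 efficiency per doubling of length nearly met between genotypes, at -0.287 in control culture 4 and -0.288 in mutant culture 2. The difference in mean coefficients was -0.174 (exact two-sided permutation test over cultures, p = 0.0286, the smallest that 4 against 4 allows, adjusted p = 0.0357 over 5 features). With any 1 culture left out the genotypes did not overlap and the difference lay between -0.197 and -0.159 (exact permutation p = 0.0571, the smallest possible). Within each fraction, the coefficient of the log2 level with length was described but not tested. In total RNA it lay between -0.00902 and 0.0122 in control and between 0.0239 and 0.0526 in mutant cultures, without overlap. In polyribosomal RNA it lay between -0.0858 and -0.0426 in control and between -0.117 and -0.0609 in mutant cultures, which overlapped.

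The lengths of the coding sequence and of both UTRs showed the same order for efficiency. Coefficients with coding length were -0.05, -0.0934, -0.0447 and -0.162 in control and -0.283, -0.189, -0.25 and -0.279 in mutant cultures. Those with 3' UTR length lay between -0.252 and -0.185 in control and between -0.353 and -0.282 in mutant cultures, and those with 5' UTR length between -0.0880 and -0.0417 and between -0.155 and -0.0990. None of these 3 overlapped between genotypes (each exact p = 0.0286, adjusted p = 0.0357). GC content behaved otherwise. Its coefficient was 0.382, 0.602, 0.644 and 0.568 in control and 0.537, 0.49, 0.477 and 0.341 in mutant cultures, positive throughout and overlapping between genotypes (exact p = 0.286). Across genes, the change in efficiency had a Spearman coefficient of -0.463 with mRNA length and of -0.261 with GC content, a description in which genes share libraries. With the genes cut into 3 equal parts by GC content, the coefficient with length was -0.227 in the lowest, -0.611 in the middle and -0.724 in the highest. When they were cut by mRNA length instead, the coefficient with GC content was -0.0533 in the shortest, -0.432 in the middle and -0.662 in the longest part.

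**Figure D2:**
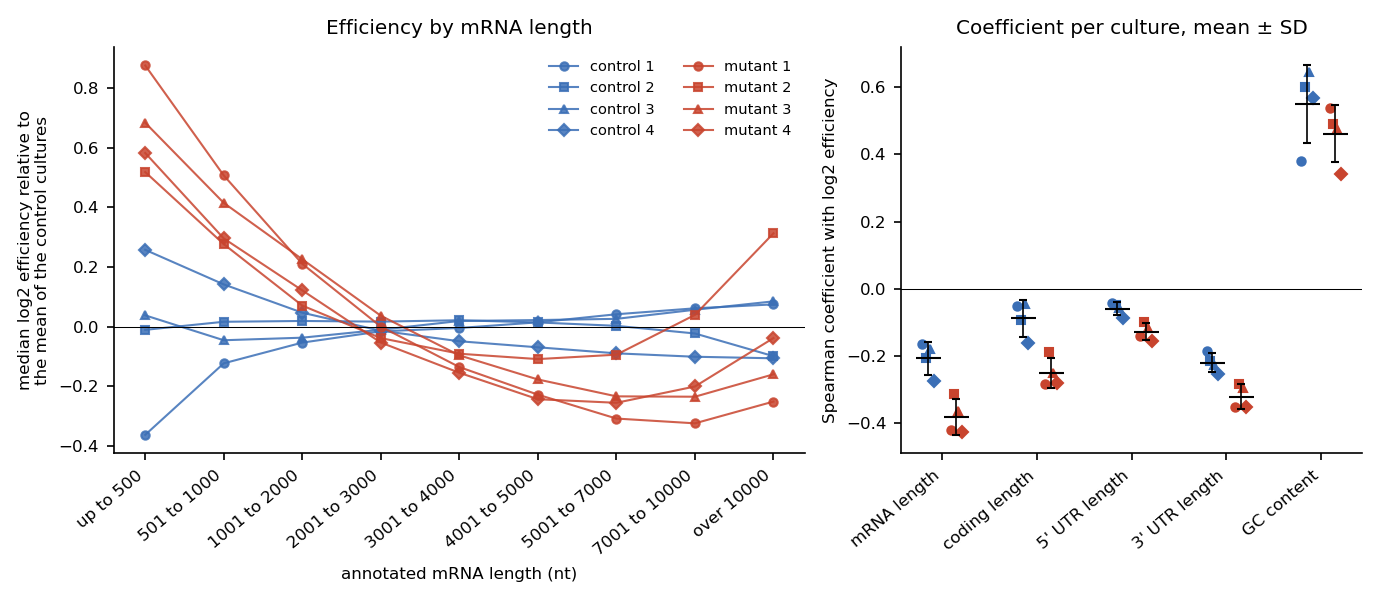
Left, median log2 efficiency of the genes in 9 bands of annotated mRNA length (x axis, nt) relative to the mean of the 4 control cultures (y axis), 1 line per culture. Right, Spearman coefficient of log2 efficiency with each of 5 features, 1 point per culture with the mean ± SD of each genotype; the mutant coefficients with mRNA length lie between -0.427 and -0.312 and the control coefficients between -0.275 and -0.163.

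In bands of length the median change fell from 0.69 for the 96 genes of at most 500 nt to 0.37 for those up to 1000 nt, 0.16 up to 2000 nt and -0.0062 up to 3000 nt. It was -0.23 for genes over 5000 and up to 7000 nt and returned to -0.034 for the 193 genes over 10000 nt. The shortest mRNAs were higher in every mutant culture, with medians of 0.88, 0.52, 0.68 and 0.58 relative to the control mean, and control culture 1 stood at -0.36. In the longest band the mutant cultures did not move together: mutant culture 2 was at 0.31 and mutant cultures 1, 3 and 4 at -0.25, -0.16 and -0.038. Over all 1041 genes of at most 1000 nt the median change was -0.19 in total RNA and 0.23 in polyribosomal RNA. When a smooth curve of efficiency on mRNA length was removed from each culture, 239 genes were higher and 388 lower. Of 1791 called genes with a length, 466 kept their call and 40 turned in sign. Counts with the curve removed are given below for many of the lists.

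The largest falls included several membrane receptors of macrophages. Csf1r, the receptor for the cytokine that macrophages and microglia need to survive, had log2 efficiencies of -1.50, -1.08, -0.41 and -0.98 in control cultures 1 to 4 and -2.79, -2.49, -2.74 and -2.32 in mutant cultures 1 to 4. The control values were all above the mutant values, a change of -1.59 ± 0.22 (adjusted p = 0.00613). Its total RNA values were 204, 309.6, 181 and 296 in control and 342, 1601, 232 and 581 in mutant cultures, whereas its polyribosomal values were 71.7, 146, 136 and 149.9 and 48.4, 284, 34 and 115. Total RNA of Csf1r was thus highest in mutant cultures 2 and 4, the cultures with the highest sums of microglial markers, while its efficiency was low in all 4. Stab1, a scavenger receptor, changed by -1.49 ± 0.35, Adgre1, the F4/80 antigen, by -1.42 ± 0.24, and Itgb2, the leukocyte integrin beta chain, by -1.25 ± 0.23. In bulk cultures a change in the number of cells of a type and a change in RNA per cell cannot be told apart.

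The other large falls were long mRNAs. Sdk2, a synaptic cell adhesion molecule, had log2 efficiencies of -0.73, -0.37, 0.22 and -0.79 in control cultures 1 to 4 and -1.92, -1.17, -1.72 and -2.34 in mutant cultures 1 to 4, a change of -1.37 ± 0.25. Setd1b, a histone H3 lysine 4 methyltransferase, went from 0.98, 0.97, 1.31 and 0.50 in control to -0.69, 0.29, 0.053 and -0.82 in mutant cultures, a change of -1.23 ± 0.23. No mutant value of either gene reached a control value. Ankrd52 (a regulatory subunit of a protein phosphatase) changed by -1.35 ± 0.31, the transcription factors Hivep3 and Zfhx2 by -1.32 ± 0.27 and -1.26 ± 0.22, and Bahcc1, a chromatin reader, by -1.31 ± 0.17. The 10 largest falls were taken among called genes with a mean of at least 100 in both tables and no overlap of genotypes. Their adjusted p lay between 0.00613 and 0.0212, and their annotated mRNAs ran from 2970 nt (Itgb2) to 11287 nt (Sdk2).

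Under the same limits on level and overlap, the largest rises were mostly short mRNAs. Atox1, a copper chaperone, had log2 efficiencies of -1.23, -0.69, -0.67 and -0.48 in control cultures 1 to 4 and 0.69, -0.057, 0.21 and -0.03 in mutant cultures 1 to 4. All mutant values were above all control values, a change of 0.97 ± 0.18 (adjusted p = 0.0064). Tmem256, a small membrane protein, went from -0.70, -0.81, -0.70 and -0.51 to 0.52, 0.23, 0.43 and -0.058, a change of 0.96 ± 0.14. Smim27 (1.29), Dnajc19 (0.97), a cochaperone of the mitochondrial inner membrane, Usmg5 (0.95), a small subunit of the ATP synthase, and Bola2 (0.96), which takes part in iron-sulphur cluster transfer, rose likewise. Cntf, a neurotrophic cytokine of glia, rose by 1.18 ± 0.22, and its 4 mutant values, 0.83, 0.43, 1.05 and 1.10, were above the control values of -0.033, -0.31, -0.69 and -0.28. Hist1h2bq had the largest estimate, 6.14 ± 1.35, but its polyribosomal value was 0 in control cultures 1 and 4, 2.29 in control culture 2 and 37.8 in control culture 3, against 104 to 353 in mutant cultures, so that estimate depends on the pseudocount. Clustered histone genes are near-identical in sequence, and reads could be split between them.

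**Figure D3:**
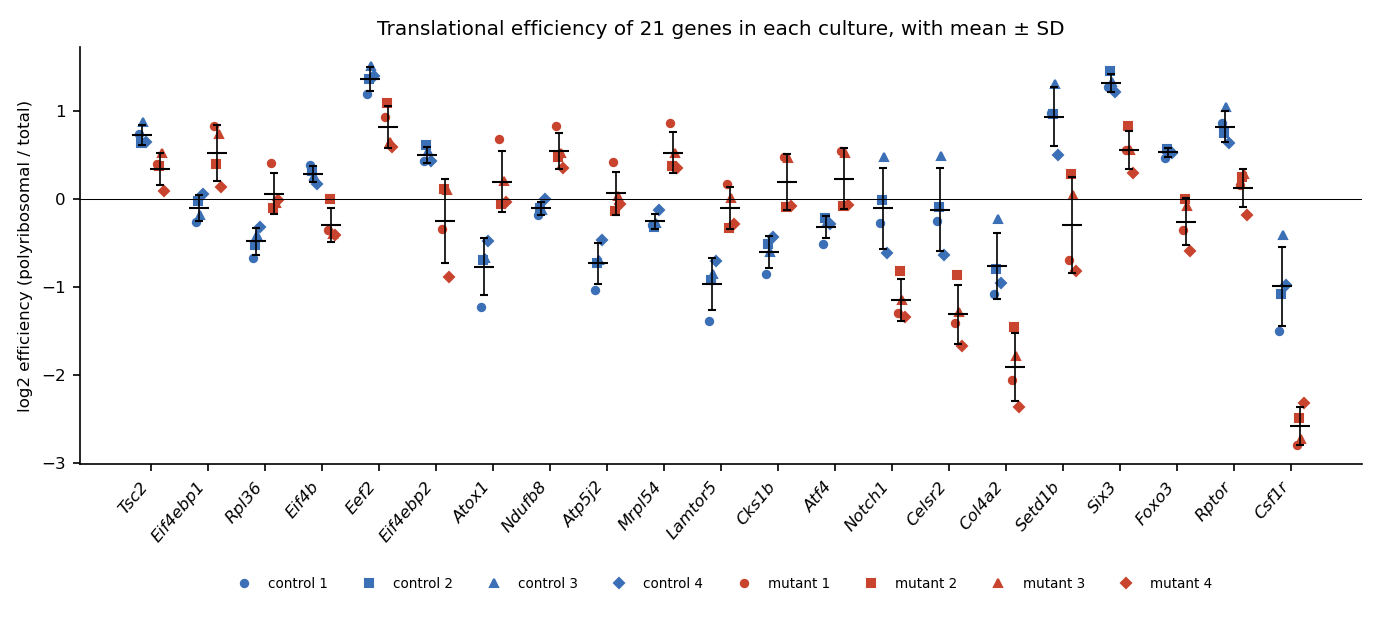
Log2 efficiency (y axis) of 21 genes (x axis) in each of 4 control (blue) and 4 mutant (red) cultures, with the mean ± SD of each genotype. Csf1r lies between -1.50 and -0.41 in control and between -2.79 and -2.32 in mutant cultures, and Atox1 between -1.23 and -0.48 and between -0.057 and 0.69.

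Ribosomal protein mRNAs, the classical TOP mRNAs, had smaller medians than other mRNAs of their length. Of 47 tested genes of the large subunit 5 were higher and none lower, with a median change of 0.12, and of 32 of the small subunit 4 were higher and none lower, with a median of 0.13 (0.070 without mutant culture 1). Over all genes 5.07% were higher and the median was 0.014. The called members included Rps29 (0.83 ± 0.19), Rpl39 (0.59 ± 0.17), Rps28 (0.55 ± 0.17) and Rpl36 (0.54 ± 0.13). Rpl36 had log2 efficiencies of -0.67, -0.52, -0.41 and -0.31 in control cultures 1 to 4 and 0.41, -0.10, -0.043 and -0.011 in mutant cultures 1 to 4, without overlap. For Rps3, Rps6 and Rpl26, named in the study's text, the changes were -0.088 ± 0.11, -0.13 ± 0.12 and 0.47 ± 0.21, and none passed the test (adjusted p = 0.63, 0.495 and 0.148). The median mRNA lengths of the 2 lists were 771 and 744 nt. Among all 1041 tested genes of at most 1000 nt the median change was 0.39 and 33.2% were higher, whereas the 34 large and 28 small subunit genes of that length had medians of 0.18 and 0.098. Their sign turned with the length curve removed: the medians over all members were -0.25 and -0.33, 5 and 2 members were lower and none was higher. Ribosomal protein genes have many processed pseudogenes, so their reads may be split.

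TOP mRNAs outside the ribosome had a median change of -0.08, and of 20 tested none was higher and 2 were lower, a share near the 7.89% of all genes. The median rested on single cultures, being 0.0015 without control culture 1, -0.037 without mutant culture 3, -0.12 without control culture 4 and -0.16 without mutant culture 4. Eef2, the translocase of the elongation cycle, had polyribosomal values of 747711, 714628, 755541 and 721623 in control and 532982, 512185, 427581 and 398566 in mutant cultures, beside total RNA values of 326403, 277727, 263964 and 273491 and 277621, 239690.0, 271302 and 263594. Its log2 efficiencies were 1.20, 1.36, 1.52 and 1.40 in control and 0.94, 1.10, 0.66 and 0.60 in mutant cultures, a change of -0.55 ± 0.12 (adjusted p = 0.0113). The polyribosomal values did not overlap between genotypes, while the total values did. Eif4b, a cofactor of the eIF4A helicase, changed by -0.58 ± 0.12, from 0.39, 0.32, 0.26 and 0.17 to -0.35, 0.00029, -0.39 and -0.41. For Eif3f, a subunit of eIF3, the estimate was -0.35 ± 0.11, just outside the threshold (adjusted p = 0.0506). Without mutant cultures 2 and 4 there were 5 lower members of this list.

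The annotated 5' ends of these mRNAs are shown because the TOP tract is the sequence that defines them. Each line gives the first 25 bases from a RefSeq start of the gene on GRCm38.p6, 5' to 3'. Capitals mark an opening C with its run of at least 4 further pyrimidines. Rps21 has 2 annotated starts and Rpl35a has 3, and the start with the longest opening run of pyrimidines is shown. The 5 ribosomal protein genes are those with such a tract and the smallest p for efficiency, and the others are called members of the TOP and respiratory lists. The 5 were thus chosen after their values were seen.
Rpl38, chr11:114668580-114668604, plus strand: CTTTCCCCgttctcttcggttctca
Rps21, chr2:180257379-180257403, plus strand: CTCCTgcccaatagtgctgcggagg
Rpl35a, chr16:33056482-33056506, plus strand: CTCTTTCCgccatcttggcgcctgt
Rpl35, chr2:39005107-39005131, minus strand: CTCTTTCTCTCgaaccaggctgctt
Fau, chr19:6057947-6057971, plus strand: CTTCCTCTTTCTTgactccatcttc
Eif4b, chr15:102073773-102073797, plus strand: cgccgcgccaccccctcgcgctgct
Eef2, chr10:81176631-81176655, plus strand: gttgacgtcagcggtctcttccgcc
Ndufb8, chr19:44555418-44555442, minus strand: gcttttgcgcatgtgcagagtgaac
Ndufa3, chr7:3617373-3617397, plus strand: gctccttgtcgccgccaagaacaag
Atp5j2, chr5:145191517-145191541, minus strand: agttctgcggacaccaggacttcaa

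The tract was found at the annotated start of 350 of the 11201 tested genes with a start in the table, or 3.12%. It was found in 7 of 34 large subunit genes (20.6%), in 7 of 24 small subunit genes (29.2%) and in 1 of 33 complex I genes (3.03%). Annotated starts can lie some bases from the true cap site, so the absence of these letters says nothing of the mRNA. Genes with the tract had a median change of 0.041 and those without of 0.016. Among the 350 genes 17 were higher and 21 lower, shares near the 5.07% and 7.89% of all tested genes. Of the genes with a start but no tract 574 were higher and 840 lower. Rpl38, whose tract runs over 8 bases, had log2 efficiencies of -0.70, -0.51, -0.54 and -0.36 in control cultures 1 to 4 and 0.23, -0.25, -0.025 and -0.073 in mutant cultures 1 to 4, without overlap, and rose by 0.50 ± 0.13. For Fau, with a tract of 13 bases, the estimate was 0.22 ± 0.14 and did not pass (adjusted p = 0.331).

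Few initiation factors were called. Of 38 tested 1 was higher and 3 were lower, beside 5.07% and 7.89% of all genes, with a median change of 0.17. Once the length curve was removed 3 were higher and none lower. The inhibitors of eIF4E were split. Eif4ebp1 had log2 efficiencies of -0.26, -0.023, -0.18 and 0.064 in control cultures 1 to 4 and 0.83, 0.40, 0.74 and 0.13 in mutant cultures 1 to 4, a rise of 0.63 ± 0.15 (adjusted p = 0.0137). Eif4ebp2 had log2 efficiencies of 0.43, 0.62, 0.54 and 0.44 in control cultures 1 to 4 and -0.33, 0.12, 0.10 and -0.89 in mutant cultures 1 to 4, a change of -0.76 ± 0.18 (adjusted p = 0.0146). The genotypes did not overlap in either gene, and the 2 paralogs moved in opposite directions. The scaffolds Eif4g1 and Eif4g3 changed by -0.51 ± 0.11 and -0.50 ± 0.15. Of 13 elongation and release factors none was called in limma, and 1 had an unadjusted p below 0.05. Among 36 aminoacyl-tRNA synthetases 2 were higher and 2 lower (1 and 1 without the length curve), for example Eprs at 0.40 ± 0.12 and Vars at -0.62 ± 0.12. Among 37 ribosome assembly factors the short mRNAs of the snoRNP proteins Nop10 and Nhp2 changed by 0.78 ± 0.13 and 0.47 ± 0.12, and the longer Nol6 and Rrp12 by -0.55 ± 0.14 and -0.53 ± 0.14, and without the length curve 2 members were higher and none lower.

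Most nuclear-encoded mRNAs of the respiratory chain rose. Of 37 tested complex I subunits 26 were higher and none lower, beside 5.07% and 7.89% of all genes, with a median change of 0.49. Of 36 subunits of complexes III and IV and the ATP synthase 20 were higher and none lower, with a median of 0.42. Relative to the control mean, the complex I medians were -0.17, 0.0031, -0.013 and 0.18 in control cultures 1 to 4 and 0.70, 0.33, 0.53 and 0.40 in mutant cultures 1 to 4. Ndufb8, an accessory subunit of complex I, had log2 efficiencies of -0.18, -0.10, -0.13 and 0.00084 in control cultures 1 to 4 and 0.83, 0.48, 0.53 and 0.36 in mutant cultures 1 to 4, a change of 0.65 ± 0.12 (adjusted p = 0.00658). Atp5j2, a subunit of the ATP synthase membrane part, had polyribosomal values of 9344, 16124, 13791 and 17506 in control and 26023, 16945, 17746 and 22956 in mutant cultures, and total RNA values of 19147, 26641, 22219 and 24142 and 19419, 18524, 17284 and 23825. Each fraction overlapped between genotypes, but the log2 efficiencies of -1.03, -0.72, -0.69 and -0.46 in control and 0.42, -0.13, 0.038 and -0.054 in mutant cultures did not, a rise of 0.80 ± 0.14. Ndufa3 and Cox7a2, a subunit of cytochrome c oxidase, rose by 0.72 ± 0.14 and 0.63 ± 0.12. Mitochondrial ribosomal proteins had 27 higher and no lower members of 77, with a median of 0.36. Mrpl54 went from -0.29, -0.32, -0.27 and -0.13 to 0.87, 0.38, 0.53 and 0.35, and Mrpl34 changed by 0.74 ± 0.14.

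The respiratory mRNAs are about as short as those of the cytosolic ribosome, with median lengths of 782 and 730 nt, and those of the mitochondrial ribosome are longer, at 1223 nt. Among genes of at most 1000 nt, 84.0% of 25 complex I genes and 70.8% of 24 genes of the other complexes were higher, beside 31.2% of 895 genes of that length outside these lists, the ribosomal lists and the proteasome. With the length curve removed the medians were 0.09, 0.12 and 0.14, and 2, 2 and 5 members were higher. Respiratory and ribosomal genes of the same length thus had different medians, 0.50 and 0.64 against 0.18 and 0.098. The difference between lists was not tested.

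**Figure D4:**
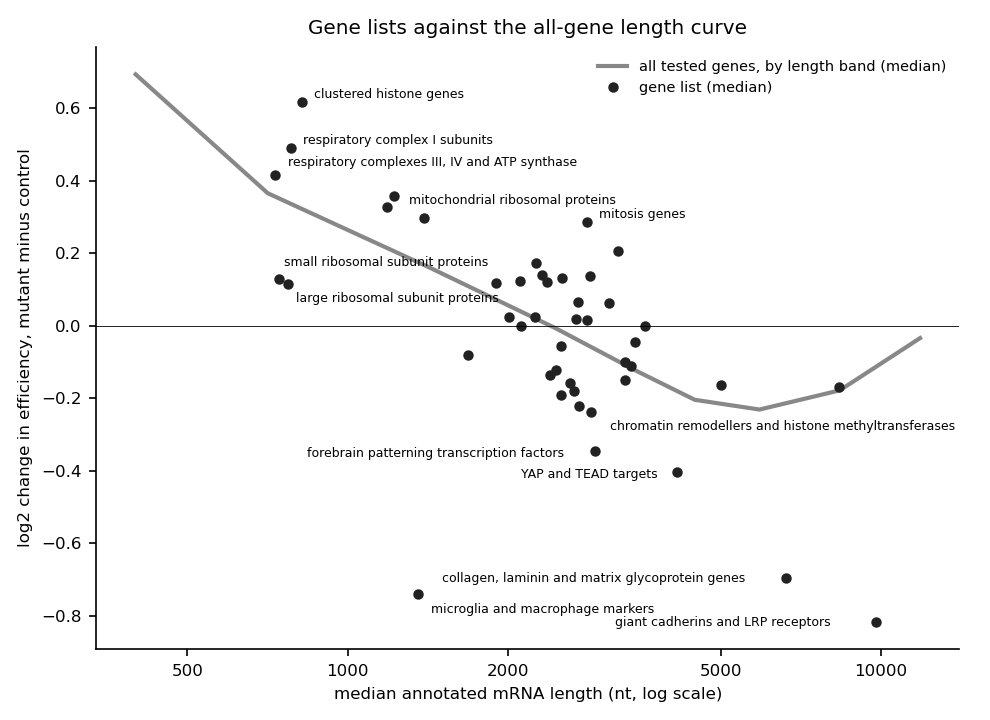
Median log2 change in efficiency (y axis) of each gene list with annotated lengths against the median mRNA length of its members (x axis, nt, log scale), with the medians of all tested genes by length band as a line. Respiratory chain lists lie above the line at 0.49 and 0.42, ribosomal protein lists below it at 0.12 and 0.13, and large cadherins, collagens and microglial markers far below it.

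Among other assemblies the called rises were mostly small subunits. Of 31 proteasome subunits 5 were higher, all beta subunits, beside 5.07% of all genes. The list median was 0.30, and none was called with the length curve removed. Psmb6, a catalytic subunit, rose by 0.48 ± 0.11. Among 41 splicing factors 5 were higher and 1 lower, and without the length curve none was higher and 2 were lower. The called rises were the Sm and Lsm ring proteins, among them Lsm7 at 0.83 ± 0.18, Lsm5 at 0.82 ± 0.17, Lsm3 at 0.69 ± 0.15 and Snrpe at 0.51 ± 0.13, and the last turned to -0.024 with the length curve removed. The metallothioneins Mt1 and Mt2, which bind zinc and copper, changed by 0.75 ± 0.17 and 0.73 ± 0.15. Of 16 small nucleolar RNA host genes, whose spliced exons are mostly untranslated, 5 were higher and all 16 estimates were positive, with a median of 0.56. Relative to the control mean the list stood at -0.70, 0.11, 0.30 and 0.16 in control and 0.98, 0.44, 0.58 and 0.22 in mutant cultures, which overlapped, and without control culture 1 its median change was 0.34. Snhg6 had total RNA values of 2986, 3784, 2243 and 3104 in control and 1189, 1417, 548 and 1299 in mutant cultures, and its log2 efficiency changed by 0.96 ± 0.21. Snhg1 changed by 0.69 ± 0.17. Of 25 clustered histone genes, whose mRNAs mostly lack the poly(A) tail on which these libraries were selected, 3 were higher, with Hist1h4i at 0.68 ± 0.16, and none without the length curve. The list median of 0.62 was 0.96 without control culture 4, which stood at 1.00 relative to the control mean beside -0.40, -0.26 and -0.12 in the other controls, 0.33 without mutant cultures 2 and 4 and 0.27 without the length curve. Outside the list the histone gene Hist3h2ba rose by 0.95 ± 0.19.

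Called mitosis genes included both short and long mRNAs. Of 32 mitosis genes 6 were higher and none lower, beside 5.07% and 7.89% of all genes. The list had a median change of 0.29 and a median length of 2808 nt. With the length curve removed the median was 0.36 and again 6 members were higher. Top2a, which untangles DNA before chromosome segregation, has an mRNA of 5221 nt and log2 efficiencies of -0.75, -1.14, -1.02 and -0.94 in control cultures 1 to 4 and -0.47, -0.36, -0.49 and -0.53 in mutant cultures 1 to 4. The genotypes did not overlap, and the change was 0.50 ± 0.12 (adjusted p = 0.013). The cyclin-dependent kinase subunits Cks1b and Cks2 and the centromeric histone Cenpa, whose mRNAs of 808, 692 and 906 nt are short, rose by 0.79 ± 0.15, 0.74 ± 0.15 and 0.69 ± 0.15. Control culture 1 stood apart in this list, at 0.22 beside -0.098, -0.062 and -0.056 in control cultures 2 to 4. Of 34 S phase genes 3 were higher, beside 5.07% of all genes, among them Tk1, thymidine kinase, at 0.42 ± 0.13.

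Lists of large cell surface and matrix proteins were among those with the lowest medians. Of 18 giant cadherins, LRP receptors and other very large receptors 11 were lower and none higher, with a median change of -0.82, beside 7.89% lower over all genes. Celsr2, a planar polarity cadherin, had polyribosomal values of 4195, 3314, 4110.3 and 2718 in control and 1827, 2675, 1953 and 1256 in mutant cultures. Its log2 efficiencies were -0.24, -0.093, 0.50 and -0.64 in control and -1.41, -0.86, -1.28 and -1.67 in mutant cultures, a change of -1.19 ± 0.21 (adjusted p = 0.0064), and no mutant value reached a control value. Pkd1, polycystin-1, changed by -0.93 ± 0.17. Notch1, Notch2 and Notch3 belong to this list as well as to that of the Notch pathway. Of 33 collagen, laminin and matrix glycoprotein genes 13 were lower, with a median of -0.70. The basement membrane collagens Col4a1, Col4a2 and Col4a5 changed by -0.99 ± 0.20, -1.15 ± 0.20 and -0.99 ± 0.21, and the laminin chain Lama5 by -0.87 ± 0.20. Col4a2 had log2 efficiencies of -1.08, -0.80, -0.23 and -0.95 in control cultures 1 to 4 and -2.05, -1.45, -1.78 and -2.36 in mutant cultures 1 to 4. In total RNA, endothelial and mural markers, cells that make basement membrane, summed to between 4144 and 6690 in control and between 7804 and 13642 in mutant cultures, and their part in the matrix result was not tested. Control culture 3 was highest and control culture 1 lowest among controls for Col4a2, and this spread ran through the list, whose control medians were -0.46, 0.017, 0.70 and -0.23 beside -0.81, -0.44, -0.94 and -0.57 in mutant cultures.

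The falls were larger than those of other long mRNAs, a difference that was not tested. Among the 1969 tested genes over 5000 nt the median change was -0.21 and 23.1% were lower, whereas 71.4% of 14 large receptors and 41.4% of 29 matrix genes of that length were lower, with medians of -0.86 and -0.72. With the length curve removed 8 and 6 members were lower and the medians were -0.70 and -0.51. With the length and GC curves both removed 8 and 4 members were lower, with medians of -0.51 and -0.35. Chromatin regulators differed. Their mRNAs are as long, with a median of 8350 nt, and 10 of 35 were lower, but the list median was -0.17 (-0.29 without mutant culture 2, -0.11 without mutant culture 1), and 0.0061 with the curve removed. The called falls included the H3 lysine 4 methyltransferase Kmt2b (-0.87 ± 0.16) and the remodellers Srcap (-0.84 ± 0.17) and Arid1a (-0.78 ± 0.17). Mutant culture 2 did not share the fall of this list, with a median of 0.16 relative to the control mean beside -0.37, -0.23 and -0.30 in mutant cultures 1, 3 and 4.

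**Figure D5:**
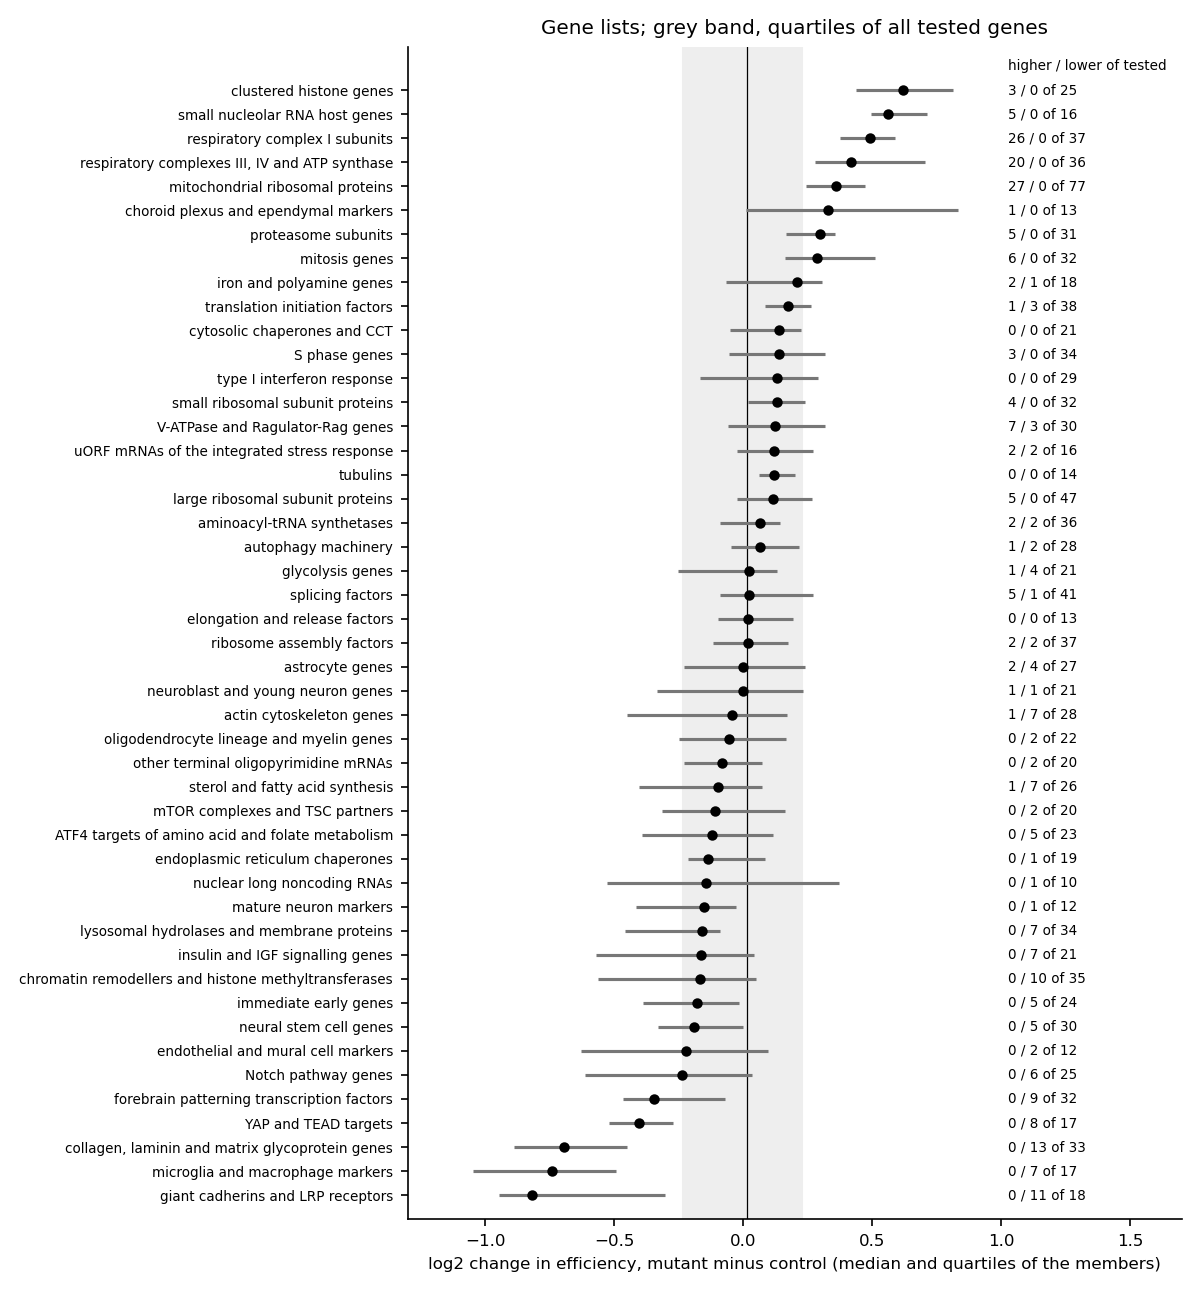
Median (point) and quartiles (bar) of the log2 change in efficiency of the tested members of 47 gene lists, with the number called higher and lower of those tested at the right and the quartiles of all tested genes as a grey band. The lists run from giant cadherins and LRP receptors at -0.82 to clustered histone genes at 0.62.

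All calls among regulators of NSC identity in limma with all cultures were falls, beside 5.07% higher and 7.89% lower over all genes. With a curve on GC content removed in place of length, 2 NSC genes and 1 Notch pathway gene were higher, and 7 and 8 were lower. Without mutant cultures 2 and 4, 1 NSC gene was higher and 5 were lower. Of 32 tested forebrain patterning transcription factors 9 were lower and none higher, with a median change of -0.34, and 6 were lower with the length curve removed. Six3, which specifies the anterior forebrain, had log2 efficiencies of 1.28, 1.46, 1.34 and 1.22 in control cultures 1 to 4 and 0.57, 0.83, 0.56 and 0.30 in mutant cultures 1 to 4. The 2 ranges were apart, a change of -0.76 ± 0.13 (adjusted p = 0.00613). The Hedgehog effector Gli2 changed by -0.83 ± 0.14, Zic2 by -0.65 ± 0.13, and Nkx2-1, a ventral forebrain factor, by -1.05 ± 0.21 at total RNA values of only 57.3, 26.6, 62.6 and 82.9 in control and 133, 129, 375 and 118 in mutant cultures. Of 30 NSC genes 5 were lower and none higher, and 1 was lower once the length curve was removed. Sox1, Sox4 and Sox9, transcription factors of neural progenitors and glia, changed by -0.60 ± 0.13, -0.47 ± 0.14 and -0.61 ± 0.14. Of 25 Notch pathway genes 6 were lower and none higher, and 3 were lower without the length curve. Notch1, a receptor that keeps NSCs undifferentiated, had log2 efficiencies of -0.27, -0.0087, 0.48 and -0.61 in control cultures 1 to 4 and -1.29, -0.82, -1.15 and -1.34 in mutant cultures 1 to 4, without overlap, a change of -1.05 ± 0.19. Notch3, the ligand Jag1 and the coactivator Maml1 changed by -1.01 ± 0.23, -0.63 ± 0.14 and -0.75 ± 0.14.

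None of 15 genes that the study's text names, most of them on other samples than these libraries, was called in limma, and 5 had an unadjusted p below 0.05. For Vim and Nes, encoding the intermediate filaments vimentin and nestin, the estimates were -0.17 ± 0.11 and -0.20 ± 0.17. Gfap, the astrocyte filament, had log2 efficiencies of 1.01, 1.26, 1.26 and 1.15 in control cultures 1 to 4 and 1.09, 1.19, 1.36 and 1.03 in mutant cultures 1 to 4, which overlapped, and an estimate of -0.0057 ± 0.12 (adjusted p = 0.981). Its total RNA values were 21502, 15234, 9309 and 15004 in control and 28706, 22958, 49320.2 and 35199 in mutant cultures. The estimates were -0.035 ± 0.11 and -0.27 ± 0.11 for the oligodendrocyte lineage factors Olig1 and Olig2, -0.30 ± 0.13 for the growth factor receptor Egfr and -0.49 ± 0.23 for the matrix protein Tnc. For Ctgf, Ttyh1, Gad1 and Ednrb they were -0.24 ± 0.17, -0.27 ± 0.14, -0.068 ± 0.18 and -0.081 ± 0.16. The nearest to a call was Ptgds, prostaglandin D synthase, at 0.40 ± 0.13 (adjusted p = 0.0576), whose 4 mutant values of -0.13, -0.32, -0.55 and -0.12 were above the control values of -0.71, -0.65, -0.65 and -0.71.

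Within the mTOR pathway, 2 of 20 tested members were lower and none higher, a share near the 7.89% lower over all genes. Rptor, the mTORC1 scaffold raptor, had log2 efficiencies of 0.86, 0.75, 1.05 and 0.64 in control cultures 1 to 4 and 0.16, 0.26, 0.29 and -0.18 in mutant cultures 1 to 4, a change of -0.69 ± 0.13 (adjusted p = 0.00726). Ulk1, the autophagy kinase that mTORC1 restrains, had log2 efficiencies of 1.64, 1.70, 1.81 and 1.55 in control cultures 1 to 4 and 0.94, 1.09, 1.25 and 0.58 in mutant cultures 1 to 4, a change of -0.71 ± 0.14 (adjusted p = 0.00733). Neither gene overlapped between genotypes. For Mtor and Tsc1 the changes were -0.33 ± 0.12 and -0.38 ± 0.13 and did not pass (adjusted p = 0.0793 and 0.0585). Of 21 insulin and IGF signalling genes 7 were lower and none higher, and 4 were lower without the length curve. They were the adaptor Irs2 (-0.84 ± 0.15), the binding protein Igfbp5 (-0.87 ± 0.17), the FOXO transcription factors Foxo3 (-0.79 ± 0.14) and Foxo1 (-0.48 ± 0.14), and the insulin and IGF1 receptors and the kinase Pdpk1. Foxo3 went from 0.47, 0.57, 0.57 and 0.52 in control to -0.35, 0.00082, -0.075 and -0.59 in mutant cultures. Ragulator, which brings mTORC1 to the lysosome, and the V-ATPase proton pump together had 7 higher and 3 lower of 30. Over all genes 5.07% were higher. The rises were small subunits such as Lamtor5 (0.86 ± 0.16), Lamtor4 (0.76 ± 0.15) and Atp6v1f (0.70 ± 0.13), and 1 of the 30 was higher with the length curve removed. Of 34 lysosomal hydrolases and membrane proteins 7 were lower and none higher, among them Gaa (-0.65 ± 0.16), Npc1 (-0.58 ± 0.16) and Tpp1 (-0.50 ± 0.13), and 1 was lower without mutant cultures 2 and 4 and 1 without the length curve.

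mRNAs with upstream open reading frames, some of which are translated more when eIF2 is phosphorylated, were called in both directions. Atf4, the transcription factor of the integrated stress response, had log2 efficiencies of -0.50, -0.22, -0.26 and -0.28 in control cultures 1 to 4 and 0.54, -0.075, 0.53 and -0.061 in mutant cultures 1 to 4, a change of 0.55 ± 0.15 (adjusted p = 0.0251). Ddit3, encoding CHOP, changed by 0.63 ± 0.19, and the lower members were Ppp1r15b (-0.45 ± 0.13) and Bace1 (-0.39 ± 0.13). Thus 2 of 16 were higher and 2 lower, beside 5.07% and 7.89% of all genes. Of 23 ATF4 target genes of amino acid and folate metabolism 5 were lower and none higher. They included the amino acid transporters Slc7a1 (-0.67 ± 0.15) and Slc7a5 (-0.50 ± 0.15) and the mitochondrial folate enzyme Mthfd1l (-0.40 ± 0.11). No member of either list was called with the length curve removed. Of 26 sterol and fatty acid genes 7 were lower and 1 higher, and none was called once the length curve was removed. The master regulators Srebf1 and Srebf2 changed by -0.60 ± 0.14 and -0.63 ± 0.15, and the desaturase Scd2 by -0.54 ± 0.12. Of 21 glycolysis genes 4 were lower and 1 higher, and 3 were lower without the length curve. The hexokinase Hk2 went from 0.79, 1.02, 1.32 and 0.90 in control to 0.10, 0.47, 0.15 and -0.12 in mutant cultures, without overlap, a change of -0.86 ± 0.15, and Hk1 changed by -0.60 ± 0.13.

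Targets of the Hippo pathway effectors YAP and TEAD had 8 lower and no higher of 17, with a median change of -0.40. Ptpn14, a phosphatase that binds YAP, changed by -0.86 ± 0.16, and the transmembrane protein Crim1 by -0.77 ± 0.17. Relative to the control mean, the list medians were -0.15, 0.088, 0.076 and -0.017 in control and -0.45, -0.20, -0.53 and -0.56 in mutant cultures. Once the length curve was removed 3 of 17 were lower and the median was -0.27. The study's text names a member of this list, Ctgf, on these libraries, so the list is not independent of them. Of 24 immediate early genes 5 were lower (1 without the length curve), among them the transcription factors Egr3 (-0.98 ± 0.20) and Fosl2 (-0.77 ± 0.17). The astrocytic sodium pump subunit Atp1b2 changed by -0.77 ± 0.15. Of 27 tested astrocyte genes 2 were higher and 4 lower, beside 5.07% and 7.89% of all genes. The median change of that list was 0.00036, and 1 member was lower without the length curve. No member was called in limma among 29 type I interferon response genes, 21 cytosolic chaperones and 14 tubulins, and 5, 5 and 1 of them had an unadjusted p below 0.05. With the mean Y-linked level in the model no member of any of the 47 lists was called. List medians were then 0.54 for complex I, 0.37 for mitochondrial ribosomal proteins and -0.35 for forebrain factors, beside 0.49, 0.36 and -0.34. Those of YAP and TEAD targets and of matrix genes were -0.40 and -0.67 beside -0.40 and -0.70. Other medians moved further. Giant cadherins and LRP receptors stood at -0.70 beside -0.82, small nucleolar RNA host genes at 0.75 beside 0.56 and clustered histone genes at 0.21 beside 0.62.

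Markers of microglia and macrophages were 7 lower and none higher of 17, beside 7.89% lower over all genes. Their median change was -0.74, although their median mRNA length was 1355 nt. Relative to the control mean the list stood at -0.81, 0.25, 0.50 and 0.053 in control and -1.07, -0.62, -1.07 and -0.64 in mutant cultures, so that control culture 1 stood apart from the other controls and lay below mutant cultures 2 and 4. Itgam, the CD11b integrin chain, changed by -2.25 ± 0.49, Mpeg1, a macrophage perforin, by -0.95 ± 0.20 and C1qa, a chain of complement C1q, by -1.03 ± 0.22. C1qa had log2 efficiencies of -1.72, -0.71, -0.53 and -1.09 in control cultures 1 to 4 and -2.32, -1.80, -2.09 and -1.98 in mutant cultures 1 to 4. The mutant values were all lower. Without mutant cultures 2 and 4, which held the highest marker sums, 7 members were again lower. The part of these cells in the efficiency of other genes was not tested. Of 13 choroid plexus and ependymal markers 1 was higher and none lower, beside 5.07% and 7.89% of all genes. Of 12 endothelial and mural markers 2 were lower, and of 12 mature neuron markers 1 was lower.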

How the data were processed

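Neural stem cell cultures of 2 genotypes (4 each) were profiled as total and polyribosomal RNA by poly(A)-selected, paired-end sequencing. The library kit keeps no strand information, and reads of overlapping genes cannot be separated. Per the study's methods and the labels, the authors trimmed adapters, aligned to mm10 with STAR and deposited gene counts divided by DESeq2 normalization factors, made separately for each fraction. The deposited values are therefore a normalised signal, not whole reads. Which read counter and annotation were used is not stated in those sources. The 26 rows whose symbols had become dates were left out, which kept 24946 genes.

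Log2(value + 1) was modelled with limma 3.58.1 (R 4.3.3) over 16 libraries, with the genotype by fraction interaction, culture as a block, variance trend, robust moderation and Benjamini-Hochberg adjustment over the 14333 genes with a mean of at least 10 in both tables. Errors are SE of the interaction unless SD is written. The threshold was an adjusted p of 0.05. Normalisation constants of a table cancel in the interaction. Total and polyribosomal libraries of a culture deviated together (correlation of deviations from group means between 0.233 and 0.731), which is why culture is the block. Control and mutant cultures with the same number did not (-0.272, -0.0477, -0.104 and 0.0864) and come from different cultures. The labels do not say whether cultures came from separate animals. The study's statistics section gives 4 cultures per genotype for polyribosome profiling and 4 mice per genotype for the gene ontology analysis of efficiency. The p-values reflect only how much these cultures vary, and where cultures share an animal that variation may be technical.

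Lengths and GC content are medians over complete protein-coding transcripts of GENCODE M21 (GRCm38), after matching 24464 symbols directly and 58 by an older symbol. Starts are from RefSeq (GRCm38.p6), and a tract was searched for at all annotated starts of a gene, on the gene's own strand. Coefficients per culture were compared by exact permutation (scipy 1.17.1). Named genes are Tsc2, the 10 largest rises and falls with a mean of at least 100 in both tables and no overlap of genotypes, up to 4 members per list (those of smallest p), and 15 genes mentioned in the study's text, most of them on other samples. Some genes that this rule selects are not reported here. Other genes are named after their values were seen. Members and lists were chosen with earlier results of these data known. The fit was tested on simulated data. Alternatives covered the block, pseudocount, filter, scaling, moderation, length and GC curves, a Y-linked covariate and left-out cultures. Removing the length and GC curves together was added after seeing the data.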

Additional observations from a re-analysis of the deposited data

Results flagged for a closer look

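In 18 of 370 groups of 4 cultures tested, 1 culture lay far from the other 3, its gap to the nearest of them exceeding Dixon's critical share of the range of the group. Chance gives about 1 in 20 such groups.

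Control culture 1 had the lowest log2 efficiency for Bola2 (-2.06), Rps28 (-1.82), Snhg1 (-1.34), Lsm3 (-1.31), Ddit3 (-1.22) and Lsm7 (-1.16), all genes called higher in mutant cultures. It was also the highest control for the median of mitosis genes (0.22 relative to the control mean) and of TOP mRNAs outside the ribosome (0.13).

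Control culture 3 was lowest for Tk1 (1.34) and for the median of autophagy machinery (-0.038), and highest for Egfr (-1.44). Mutant culture 1 was highest for Rps28 (-0.38). Mutant culture 2 was highest for Eif4b (0.00029) and Col4a1 (-1.45) and lowest for the median of proteasome subunits (0.13). Mutant culture 3 was lowest for Srebf1 (-0.59), Ctgf (-0.93) and the median of type I interferon response genes (-0.0065).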

How the results depend on the processing

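Counts of genes with higher and lower efficiency were most sensitive to the error model. The interaction without the replicate block called 0 higher and 0 lower genes in limma (2221 with an unadjusted p below 0.05), and so did limma without robust moderation and variance trend (0 and 0, 3980 unadjusted) and the fit with the Y-linked level (0 and 0, 2214 unadjusted). With the numbers of the cultures as a block across genotypes, which do not pair them, 489 were higher and 885 lower. Leaving out 1 culture gave 189 to 1496 higher and 439 to 1786 lower genes. Removing the length curve gave 239 and 388, removing the GC curve 1317 and 1440, and removing both 534 and 603. Without a filter 508 were higher and 842 lower. Higher genes were 39.1% of calls as deposited, 49.3% at equal library totals, 47.8% with the GC curve removed and 56.9% without mutant cultures 2 and 4. Pseudocounts of 0.5 and 10, a mean of at least 100, equal medians and quantile normalization kept both counts within 1.5 times.

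Tsc2 fell in every setting but often missed the threshold. The change was -0.38 without the block, with the number block, with pseudocount 0.5, without a filter and without robust moderation (adjusted p between 0.0502 and 0.343). It was -0.36 with equal medians, -0.18 with the length curve removed, -0.026 with both curves removed, -0.29 with the Y-linked level, -0.27 without mutant cultures 2 and 4 and -0.44 to -0.30 with 1 culture left out.

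The difference in the relation to mRNA length kept its sign and lack of overlap throughout. It was -0.197 to -0.159 with 1 culture left out and -0.185 without mutant cultures 2 and 4, where the exact permutation p was 0.133. Removal of the length curve turned the sign of Rpl36 (-0.15), Rpl38 (-0.21), Rpl30 (-0.076), Rps12 (-0.12), Rps28 (-0.13), Rps26 (-0.028), Psmb5 (-0.013), Psmb3 (-0.017) and Snrpe (-0.024). With both curves removed it turned for Usmg5 (-0.012), Rpl36 (-0.071), Rpl38 (-0.19), Rpl30 (-0.18), Rps12 (-0.096), Rps28 (-0.12), Rps26 (-0.090), Lsm5 (-0.30) and Snrpe (-0.32). The causes were not tested. Depth was between 24.7 M and 268 M reads a library, and each genotype had 4 cultures.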
